A study of Homo sapiens with 9 samples.

Results

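Interferon-stimulated genes are transcripts that cells raise once interferon has bound its receptor, and 51 of them were followed here in FaDu cells treated with inhibitors of CDK7. They were chosen by gene symbol from the 58929 genes of the count table. All 51 had a count in at least 1 library, and 49 of them were among the 16065 genes that passed a filter on low counts and were tested. The remaining members, MX2 and XAF1, were too low for the test. FaDu is a cell line from a human hypopharyngeal carcinoma, of the head and neck squamous cell carcinoma (HNSCC) type, and CDK7 is a kinase that activates other CDKs and, within TFIIH, phosphorylates RNA polymerase II. There were 9 libraries of poly(A)-selected RNA, 3 each from cells treated with YKL-5-124 at 250 nM, a covalent CDK7 inhibitor, with samuraciclib at 250 nM, an ATP-competitive CDK7 inhibitor, or with the vehicle DMSO. The cells of all groups carry the genotype wild type in the labels, the 3 replicates of a group are biological replicates of 1 line, and no added interferon is named for any group. The time of exposure is 48 h in the treatment protocol but 72 h in the series design.

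Type I interferons bind the receptor of IFNAR1 and IFNAR2, whose kinases JAK1 and TYK2 phosphorylate STAT2. With IRF9 it is part of the complex ISGF3, which binds the interferon-stimulated response element (ISRE) in the promoters of its targets, whereas the response to interferon gamma runs through the gamma-activated site (GAS). The products of these targets sense viral RNA, degrade it, halt translation or block viral entry, and many epithelial cells and tumour lines hold some of them at a basal level without added interferon.

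The ISRE letters were looked up in the promoters. The choice of members used no sequence, but a high share was likely beforehand among genes known to respond to interferon. The shares describe this class of genes and not these libraries. A window from 250 bases before to 50 bases after the start of transcription was at hand for 39 of the 51 members (RefSeq, GRCh38.p14). The letters GAAANNGAAA on either strand were present in 25 of these 39 windows (64.1%), against 996 of all 27305 promoters of the same length (3.65%). The GAS letters TTCNNNGAA, which read the same on both strands, were present in 10 of the 39 (25.6%), against 7.88% of all promoters. Both motifs were present in 6 of the 39 (15.4%), against 0.428% of all promoters, and the letters of the motifs can overlap. Among the 18 members called in at least 1 comparison, IFI27, IFI44, IFI6, IFIT3, IFITM3, DDX60, HERC5 and GBP1 held the ISRE letters, and these are shown because some of them were lower and others higher with the inhibitors. In each stretch, written 5′ to 3′ on the strand of the gene, the capitals mark the letters GAAANNGAAA or their reverse complement. Each stretch lies before the RefSeq start, and those of 30 bases were kept short because they reach into the gene model of the count table.
IFI44: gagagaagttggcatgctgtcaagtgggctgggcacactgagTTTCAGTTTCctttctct
IFIT3: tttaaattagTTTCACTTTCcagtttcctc
IFITM3: agGAAAAGGAAActgttgaGAAACCGAAAc
HERC5: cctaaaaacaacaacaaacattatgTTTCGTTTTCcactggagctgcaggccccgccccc
DDX60: gaggagaaagGAAACCGAAActcccgccgg
GBP1: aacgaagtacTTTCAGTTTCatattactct
IFI27: gcagTTTCGGTTTCctgGAAAATGAAAcct
IFI6: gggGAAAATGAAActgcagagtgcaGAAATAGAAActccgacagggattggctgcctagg
The IFI44 stretch is chr1:78649729-78649788 on the plus strand and that of IFIT3 is chr10:89327865-89327894 on the plus strand. The stretch of IFITM3 is chr11:320885-320914 on the minus strand and that of HERC5 is chr4:88457020-88457079 on the plus strand. The stretch of DDX60 is chr4:168318786-168318815 on the minus strand and that of GBP1 is chr1:89065316-89065345 on the minus strand. The stretch of IFI27 is chr14:94110624-94110653 on the plus strand and that of IFI6 is chr1:27672251-27672310 on the minus strand. The letters appear once in the printed stretch of IFI44, IFIT3, HERC5, DDX60 and GBP1, and more than once in those of IFITM3, IFI27 and IFI6. The windows of the called members IRF9, HERC6, SAMD9L and SP110 did not hold these exact letters, and IRF9 held the GAS letters. No window was at hand for IFIT2, IFITM2, OASL, DHX58, TRIM22 and GBP2.

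The libraries held 18264302 to 24613892 counts with YKL-5-124, 19346587 to 22111350 with samuraciclib and 18096180 to 28018126 with DMSO. All 8 markers of squamous epithelium lay above 1 CPM, the unit of a gene's counts relative to the scaled size of the library, and their summed level was 5648 to 6079 CPM with YKL-5-124, 6278 to 6584 CPM with samuraciclib and 5446 to 5770 CPM with DMSO. Within that sum KRT17 (0.60 ± 0.045 with YKL-5-124 and 0.60 ± 0.045 with samuraciclib, log2 fold change against DMSO ± SE) and CDH1 (1.00 ± 0.047 and 0.80 ± 0.047) were called higher with both inhibitors, and KRT14 was called lower with YKL-5-124 (-0.50 ± 0.090). KRT14 was also called lower with YKL-5-124 than with samuraciclib (-0.77 ± 0.089). KRT5, a large part of the sum, averaged 1852 CPM with YKL-5-124, 2329 CPM with samuraciclib and 2577 CPM with DMSO. It was not called against DMSO (-0.48 ± 0.047 with YKL-5-124 and -0.15 ± 0.047 with samuraciclib). Of 7 leukocyte markers 6 lay below 1 CPM in each group, with a sum of 3.48 to 4.47 CPM with YKL-5-124, 3.00 to 3.13 CPM with samuraciclib and 2.63 to 3.40 CPM with DMSO. Most of that sum was CD14, which was called higher with YKL-5-124 than with samuraciclib (0.54 ± 0.18) and in neither comparison with DMSO. Of 3 markers of plasmacytoid dendritic cells, which make much interferon in blood, LILRA4 and CLEC4C were at 0 counts in all 9 libraries, and IL3RA stood at 1.14, 0.978 and 0.923 CPM with YKL-5-124, 0.608, 0.319 and 0.616 CPM with samuraciclib and 0.800, 0.372 and 0.978 CPM with DMSO and was not called in any comparison. Of 3 endothelial markers 2 lay below 1 CPM in each group, and their sum was 25.5 to 28.4 CPM with YKL-5-124, 20.0 to 23.8 CPM with samuraciclib and 29.95 to 32.1 CPM with DMSO. Nearly all of that sum was CDH5, which was called lower with samuraciclib (-0.50 ± 0.081). Of 6 fibroblast markers 5 lay below 1 CPM in each group. The part of these marker levels in the results was not tested. RN7SL2, a gene of the 7SL RNA, stood at 56.2 CPM in YKL-5-124 replicate 2, 24.9 CPM in samuraciclib replicate 2 and 59.3 CPM in DMSO replicate 3, against 695 to 980 CPM in the other 6 libraries. Calls lost in those 6 libraries alone are given beside the gene. Since these are bulk libraries, a change in a share of the cells and a change in the RNA per cell cannot be told apart.

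A few members stood far above the rest, as the plot of levels shows. The members together took 0.196% to 0.201% of the counts with YKL-5-124, 0.180% to 0.186% with samuraciclib and 0.201% to 0.205% with DMSO. Levels of different genes were compared per kilobase of the gene length deposited with the counts, which need not be that of the expressed transcript. The order of the genes depends on that length. On this scale the highest level was that of ISG15, a ubiquitin-like protein. Its group means were 185 with YKL-5-124, 135 with samuraciclib and 156 with DMSO (CPM per kilobase, n = 3). In order of the DMSO level, IFITM3, which blocks the entry of enveloped viruses, followed with 82.8 with YKL-5-124, 91.7 with samuraciclib and 147 with DMSO, and LGALS3BP, a secreted glycoprotein that binds galectins, with 129 with YKL-5-124, 124 with samuraciclib and 132 with DMSO. There was then a gap, in the DMSO order, to IFI44, with 12.7 with YKL-5-124, 11.9 with samuraciclib and 27.2 with DMSO, IFIT3 with 15.6 with YKL-5-124, 13.0 with samuraciclib and 25.3 with DMSO and OAS3 with 15.7 with YKL-5-124, 17.5 with samuraciclib and 21.6 with DMSO. The order differed with the inhibitors, where LGALS3BP stood above IFITM3, and IFI44 stood below other members such as BST2 (19.7 with YKL-5-124 and 18.9 with samuraciclib). The median over the 51 members was 4.23 with YKL-5-124, 4.39 with samuraciclib and 4.68 with DMSO. At the low end, GBP2 had group means of 0.631 with YKL-5-124, 0.808 with samuraciclib and 0.145 with DMSO, and IFI44L, MX2 and XAF1 lay below it in the DMSO libraries. MX2, an antiviral GTPase, and XAF1, a promoter of apoptosis, had means below 1 CPM in every group. In CPM without the correction for length, 5 members had a mean of at least 100 in each group, and 31 had at least 10 with YKL-5-124, 31 with samuraciclib and 32 with DMSO.

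**Figure D1:**
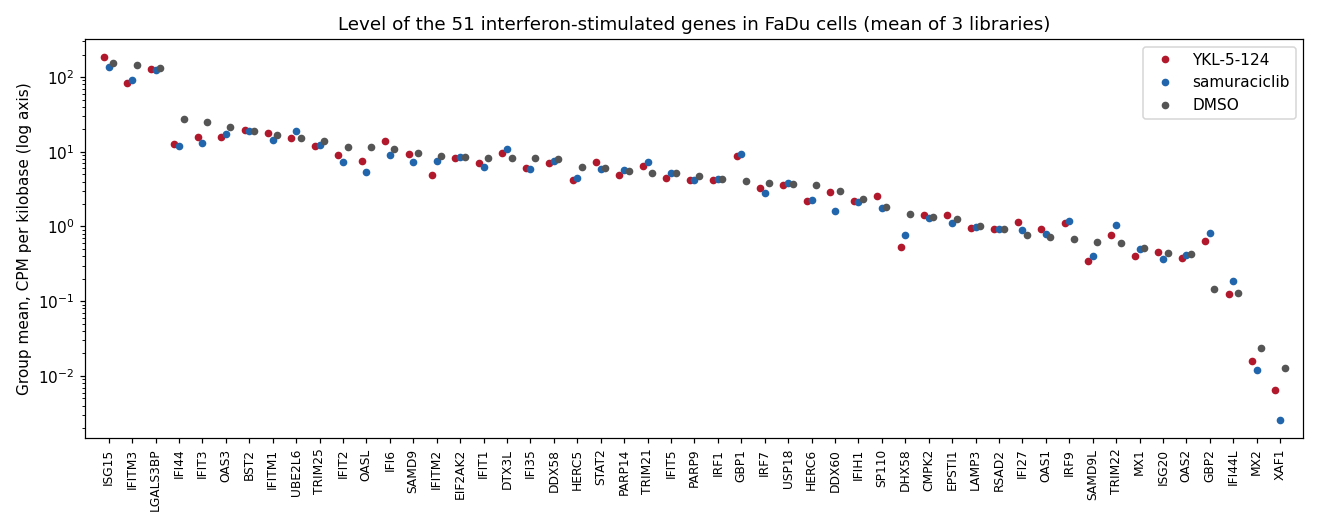
Group mean of each of the 51 interferon-stimulated genes in CPM per kilobase of gene length, on a log axis, for YKL-5-124, samuraciclib and DMSO (mean of 3 libraries each), in order of the DMSO level. ISG15, IFITM3 and LGALS3BP stand above the rest, and the DMSO point of GBP2 lies below its inhibitor points.

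The comparison of each inhibitor with DMSO asks which of these genes move when CDK7 is inhibited in these cells. The quasi-likelihood F-test of edgeR was used, and to be called a gene had to pass an adjusted p of 0.05 (Benjamini-Hochberg, 16065 genes) and a log2 fold change larger than 0.5 in either direction. Unless marked as SD, a value with ± is a log2 fold change and its SE (n = 3 per group), and CPM per library stand in order of replicate. With YKL-5-124, 4 of the 49 tested members rose (8.16%) and 9 fell (18.4%), 26.5% in all. The share called among all genes tested was 21.8%, with 11.9% higher and 9.93% lower. With samuraciclib, 4 members rose (8.16%) and 10 fell (20.4%), 28.6% in all, against 17.7% of all genes, 8.17% higher and 9.55% lower. The shares of members that rose were thus at or below that of all genes, and the shares that fell were above it. The members were chosen with earlier results of these data known, so these shares describe the list and are no independent test of it. The median log2 fold change over the 49 members was -0.053 with YKL-5-124 and -0.093 with samuraciclib, against 0.014 with YKL-5-124 and 0.0012 with samuraciclib over all genes. Both comparisons use the same 3 DMSO libraries, so their results are not independent of each other.

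Most members did not pass. Of 36 members not called with YKL-5-124, 27 had a 95% interval of the log2 fold change inside 0.5 on either side of 0, and of 35 not called with samuraciclib 26 did. Among the members not called, 12 with YKL-5-124 and 9 with samuraciclib had an adjusted p below 0.05 with a change inside the fold threshold. At an unadjusted edgeR p below 0.05, 65.3% of the 49 members passed with YKL-5-124, against 55.5% of all genes. With samuraciclib 53.1% of the members passed, against 51.4% of all genes. The shares of all genes for the intervals are not given here. The libraries of the inhibitor and of DMSO did not overlap for any of the 13 members called with YKL-5-124 and for 13 of the 14 called with samuraciclib, the exception being IRF9, and 56.8% and 52.9% of all genes tested did not overlap in these comparisons. With scaling by library size alone, the median over all genes moved to 0.14 with YKL-5-124, and the split of its called members became 6 higher and 7 lower. The shares of all genes called higher and lower with that scaling are not given here, so this split has no background beside it.

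**Figure D2:**
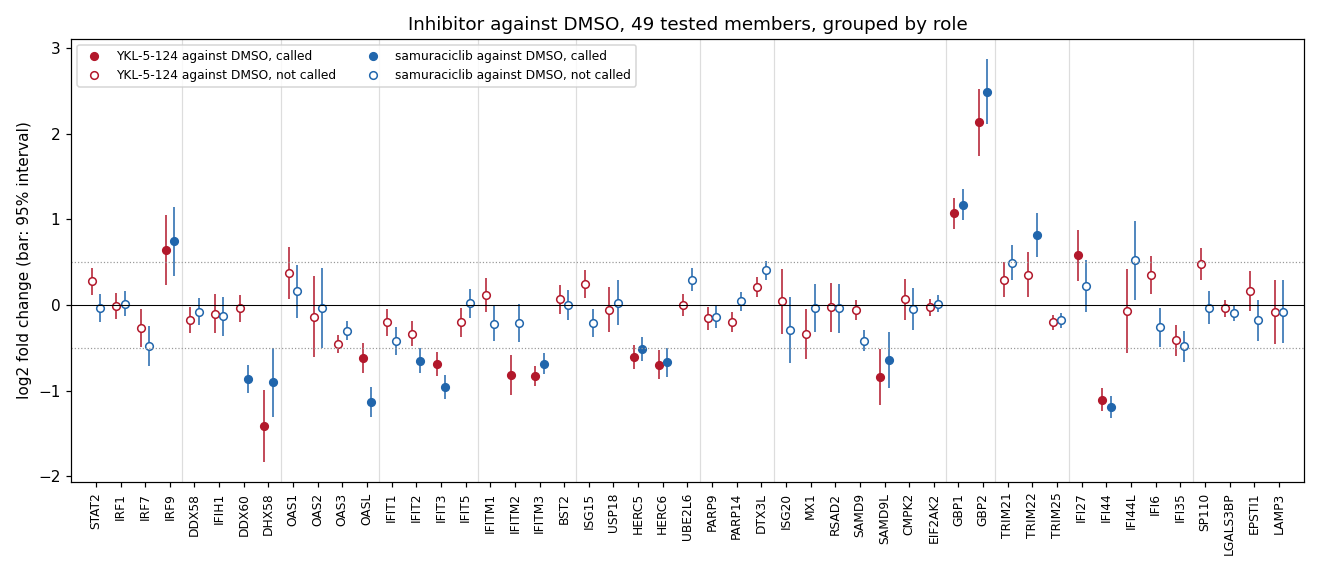
Log2 fold change over DMSO of the 49 tested members, grouped by role, for YKL-5-124 and samuraciclib, with bars of the 95% interval (1.96 SE) and dotted lines at the fold threshold. Filled points were called, 4 above and 9 below 0 for YKL-5-124 and 4 above and 10 below 0 for samuraciclib, and the points of GBP2 and GBP1 stand highest.

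Of the 4 transcription factors, IRF9 was higher with both inhibitors and the other 3 were not called. IRF9 (ENSG00000213928, chromosome 14, 24161053 to 24166565, GRCh38), the DNA-binding subunit of ISGF3, stood at 4.10, 4.15 and 4.37 CPM with YKL-5-124, 3.55, 5.55 and 4.41 CPM with samuraciclib and 1.89, 2.39 and 3.57 CPM with DMSO. The YKL-5-124 libraries lay above all DMSO libraries, whereas samuraciclib replicate 1 lay below DMSO replicate 3. IRF9 rose with YKL-5-124 (0.64 ± 0.21, edgeR adjusted p = 0.0162) and with samuraciclib (0.74 ± 0.21, edgeR adjusted p = 0.00704). Without DMSO replicate 1 the difference with YKL-5-124 was 0.46, edgeR adjusted p = 0.0859, and without DMSO replicate 2 it was 0.57, edgeR adjusted p = 0.0667. The model of IRF9 lies wholly within AL136295.5, a readthrough gene on the same strand that was not called (0.21 ± 0.24 with YKL-5-124 and 0.11 ± 0.24 with samuraciclib), so reads of the pair may not be fully separable.

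STAT2, a subunit of ISGF3, had 44.7, 45.9 and 43.7 CPM with YKL-5-124, 30.5, 40.6 and 37.0 CPM with samuraciclib and 37.4, 35.1 and 38.2 CPM with DMSO. The YKL-5-124 libraries lay above the DMSO libraries by less than the fold threshold (0.28 ± 0.081, edgeR adjusted p = 0.00804), and those of samuraciclib overlapped with DMSO (-0.035 ± 0.082, edgeR adjusted p = 0.759). IRF1, an activator induced above all by interferon gamma, had 35.4, 32.7 and 30.8 CPM with YKL-5-124, 36.8, 31.8 and 32.2 CPM with samuraciclib and 35.3, 33.2 and 31.2 CPM with DMSO, with overlap between all groups (-0.0094 ± 0.076 with YKL-5-124 and 0.018 ± 0.076 with samuraciclib). The 95% intervals of IRF1 were -0.16 to 0.14 with YKL-5-124 and -0.13 to 0.17 with samuraciclib. IRF7, which drives the genes of type I interferons, had 9.30, 7.59 and 8.55 CPM with YKL-5-124, 8.04, 6.87 and 6.93 CPM with samuraciclib and 11.0, 10.0 and 9.52 CPM with DMSO. Both inhibitor groups lay below all DMSO libraries for IRF7, with log2 fold changes of -0.26 ± 0.11, edgeR adjusted p = 0.0637 with YKL-5-124 and -0.48 ± 0.12, edgeR adjusted p = 0.00262 with samuraciclib, and neither was called. Without samuraciclib replicate 1 the IRF7 difference with samuraciclib was -0.56, edgeR adjusted p = 0.00282, and without DMSO replicate 3 it was -0.53, edgeR adjusted p = 0.00379, past both thresholds.

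Among the 4 sensors and helicases, DHX58 fell with both inhibitors and DDX60 fell with samuraciclib. DHX58 (ENSG00000108771, chromosome 17, 42101404 to 42112733), which encodes LGP2, a regulator of the RNA sensors that has no signalling domain of its own, stood at 2.18, 2.03 and 1.94 CPM with YKL-5-124, 2.85, 2.69 and 3.23 CPM with samuraciclib and 7.26, 5.75 and 3.69 CPM with DMSO. Every inhibitor library lay below every DMSO library, and the DMSO libraries were themselves far apart. DHX58 fell with YKL-5-124 (-1.41 ± 0.21, edgeR adjusted p = 2.76e-05) and with samuraciclib (-0.90 ± 0.21, edgeR adjusted p = 0.00149). DDX60 (ENSG00000137628, chromosome 4, 168216293 to 168318807), a helicase linked to signalling by RIG-I, stood at 19.6, 19.1 and 19.9 CPM with YKL-5-124, 10.6, 11.9 and 10.5 CPM with samuraciclib and 19.1, 20.5 and 20.5 CPM with DMSO. All samuraciclib libraries lay below the other 6, and those of YKL-5-124 overlapped with DMSO. DDX60 fell with samuraciclib (-0.86 ± 0.086, edgeR adjusted p = 2.49e-07) and differed by -0.037 ± 0.081, edgeR adjusted p = 0.733 with YKL-5-124. The sensors themselves, DDX58 (RIG-I) and IFIH1 (MDA5), were not called, with log2 fold changes of -0.17 to -0.099 with YKL-5-124 and -0.13 to -0.076 with samuraciclib.

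In the OAS family, whose enzymes make the 2′-5′ oligoadenylates that switch on RNase L, only OASL was called. OASL (ENSG00000135114, chromosome 12, 121019111 to 121039242), a relative without that enzyme activity, stood at 24.0, 30.7 and 24.3 CPM with YKL-5-124, 18.7, 16.9 and 20.1 CPM with samuraciclib and 41.8, 40.5 and 39.8 CPM with DMSO. The groups did not overlap, with samuraciclib lowest and DMSO highest. OASL fell with YKL-5-124 (-0.62 ± 0.088, edgeR adjusted p = 1.37e-05) and with samuraciclib (-1.13 ± 0.092, edgeR adjusted p = 1.94e-08), and with scaling by library size alone the YKL-5-124 difference was -0.49, edgeR adjusted p = 1.99e-04, inside the fold threshold. OAS3, the family member with the highest level per kilobase, averaged 129.7 ± 3.06 CPM with YKL-5-124, 145 ± 10.7 CPM with samuraciclib and 178 ± 9.91 CPM with DMSO (SD, n = 3). Its differences stayed inside the fold threshold (-0.46 ± 0.055, edgeR adjusted p = 1.91e-06 with YKL-5-124, and -0.30 ± 0.055, edgeR adjusted p = 2.21e-04 with samuraciclib). OAS1 and OAS2, both at a low level, had log2 fold changes of -0.14 to 0.37 with YKL-5-124 and -0.031 to 0.16 with samuraciclib.

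The IFIT proteins bind viral RNA, and IFIT3 fell with both inhibitors, IFIT2 with samuraciclib. IFIT3 (ENSG00000119917, chromosome 10, 89327894 to 89340971) stood at 40.3, 45.5 and 38.0 CPM with YKL-5-124, 34.4, 35.4 and 32.9 CPM with samuraciclib and 62.2, 72.2 and 65.6 CPM with DMSO. All inhibitor libraries lay below all DMSO libraries, and samuraciclib lay below YKL-5-124 without overlap. IFIT3 fell with YKL-5-124 (-0.69 ± 0.070, edgeR adjusted p = 2.51e-07) and with samuraciclib (-0.96 ± 0.072, edgeR adjusted p = 6.88e-09). IFIT2 (ENSG00000119922, chromosome 10, 89283694 to 89309276) stood at 37.6, 41.3 and 34.2 CPM with YKL-5-124, 32.3, 28.4 and 30.5 CPM with samuraciclib and 48.2, 50.1 and 44.8 CPM with DMSO, in the same order of groups. IFIT2 fell with samuraciclib (-0.65 ± 0.075, edgeR adjusted p = 1.56e-06), and its difference with YKL-5-124 was inside the fold threshold (-0.33 ± 0.074, edgeR adjusted p = 0.00107). IFIT1 had -0.20 ± 0.083 with YKL-5-124 and -0.42 ± 0.084 with samuraciclib, and IFIT5 had -0.20 ± 0.087 and 0.021 ± 0.086 in the same comparisons, none of them called. The models of IFIT1, IFIT2 and IFIT3 lie wholly within the span of LIPA on the opposite strand, and LIPA itself was not called (-0.052 ± 0.052 with YKL-5-124 and -0.11 ± 0.053 with samuraciclib).

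Among the membrane restriction factors, IFITM3 fell with both inhibitors and IFITM2 with YKL-5-124. IFITM3 (ENSG00000142089, chromosome 11, 319669 to 327537) stood at 104, 114 and 116 CPM with YKL-5-124, 118, 119 and 133 CPM with samuraciclib and 196, 186 and 214 CPM with DMSO. Every inhibitor library lay below every DMSO library. IFITM3 fell with YKL-5-124 (-0.83 ± 0.061, edgeR adjusted p = 3.28e-09) and with samuraciclib (-0.68 ± 0.060, edgeR adjusted p = 5.76e-08). IFITM2 (ENSG00000185201, chromosome 11, 307631 to 315272), a close paralog, stood at 7.22, 7.82 and 7.92 CPM with YKL-5-124, 9.77, 11.7 and 13.8 CPM with samuraciclib and 14.2, 13.8 and 12.7 CPM with DMSO. The YKL-5-124 libraries lay below all others, and samuraciclib replicate 3 reached the DMSO range. IFITM2 fell with YKL-5-124 (-0.82 ± 0.12, edgeR adjusted p = 1.65e-05), and its difference with samuraciclib was -0.21 ± 0.11, edgeR adjusted p = 0.154. IFITM1 had 0.12 ± 0.10 with YKL-5-124 and -0.22 ± 0.10 with samuraciclib, and BST2 (tetherin), which holds budding viruses at the cell surface, had 0.066 ± 0.088 and 0.0057 ± 0.089 in the same comparisons, none of them called. The IFITM genes are paralogs of similar sequence and the model of IFITM1 lies wholly within that of IFITM2, so the split of reads among them is uncertain.

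In the ISG15 system HERC5 and HERC6 fell with both inhibitors and the modifier itself did not pass. UBA7, the activating enzyme of ISG15 and not among the 51 members, rose (0.96 ± 0.21 with YKL-5-124 and 0.85 ± 0.21 with samuraciclib). HERC5 (ENSG00000138646, chromosome 4, 88457117 to 88506163), the main ligase that attaches ISG15 to proteins in human cells, stood at 19.7, 19.8 and 19.8 CPM with YKL-5-124, 21.9, 20.4 and 20.5 CPM with samuraciclib and 31.0, 30.6 and 28.4 CPM with DMSO. HERC6 (ENSG00000138642, chromosome 4, 88378739 to 88443111), its neighbour, which has that role in mouse, stood at 13.2, 12.4 and 12.5 CPM with YKL-5-124, 14.0, 12.0 and 12.8 CPM with samuraciclib and 20.7, 20.6 and 20.6 CPM with DMSO. For both genes all inhibitor libraries lay below all DMSO libraries, and the YKL-5-124 libraries of HERC5 were nearly equal to each other. HERC5 fell with YKL-5-124 (-0.60 ± 0.072, edgeR adjusted p = 1.64e-06) and with samuraciclib (-0.52 ± 0.071, edgeR adjusted p = 1.13e-05), and HERC6 fell with YKL-5-124 (-0.70 ± 0.086, edgeR adjusted p = 2.57e-06) and with samuraciclib (-0.67 ± 0.086, edgeR adjusted p = 5.24e-06). The calls of HERC5 lie near the fold threshold. With scaling by library size alone they were -0.47, edgeR adjusted p = 3.44e-05 for YKL-5-124 and -0.46, edgeR adjusted p = 5.78e-05 for samuraciclib. The samuraciclib difference of HERC5 was also just inside the fold threshold without samuraciclib replicate 2 (-0.50, edgeR adjusted p = 7.62e-05), without samuraciclib replicate 3 (-0.50, edgeR adjusted p = 1.06e-04) and without DMSO replicate 1 (-0.49, edgeR adjusted p = 1.50e-04). ISG15 averaged 175 ± 23.9 CPM with YKL-5-124, 127 ± 13.4 CPM with samuraciclib and 147 ± 9.32 CPM with DMSO (SD, n = 3), with differences inside the fold threshold (0.25 ± 0.083, edgeR adjusted p = 0.0191 with YKL-5-124, and -0.21 ± 0.083, edgeR adjusted p = 0.0516 with samuraciclib). UBE2L6, the conjugating enzyme for ISG15, had 0.0016 ± 0.068 with YKL-5-124 and 0.30 ± 0.067 with samuraciclib. USP18, which removes ISG15 and dampens the receptor, had -0.053 ± 0.13 and 0.029 ± 0.13 in the same comparisons.

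The antiviral effectors were mostly not called, with SAMD9L as the exception. SAMD9L (ENSG00000177409, chromosome 7, 93130055 to 93148369), a restrainer of growth and viral replication, stood at 2.29, 2.78 and 2.38 CPM with YKL-5-124, 2.62, 2.87 and 3.13 CPM with samuraciclib and 3.89, 4.26 and 5.16 CPM with DMSO. All inhibitor libraries lay below all DMSO libraries. SAMD9L fell with YKL-5-124 (-0.84 ± 0.17, edgeR adjusted p = 4.02e-04) and with samuraciclib (-0.64 ± 0.16, edgeR adjusted p = 0.00384), and in the 6 libraries without low RN7SL2 the samuraciclib difference was -0.51, edgeR adjusted p = 0.0759. The adjacent SAMD9 had -0.053 ± 0.060, edgeR adjusted p = 0.491 with YKL-5-124 and -0.42 ± 0.061, edgeR adjusted p = 2.28e-05 with samuraciclib, inside the fold threshold. EIF2AK2 (PKR), which halts translation, was measured with a small error and had -0.026 ± 0.051 with YKL-5-124 and 0.016 ± 0.051 with samuraciclib. MX1, RSAD2 (viperin), ISG20 and CMPK2, each at a low level, had log2 fold changes of -0.34 to 0.067 with YKL-5-124 and -0.29 to -0.033 with samuraciclib. The PARP9, DTX3L and PARP14 genes, of an ADP-ribosylation complex and a related enzyme, had -0.20 to 0.21 with YKL-5-124 and -0.14 to 0.40 with samuraciclib, none called.

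The guanylate-binding proteins were the members that rose most. GBP2 (ENSG00000162645, chromosome 1, 89106132 to 89150456), a large GTPase induced by interferon gamma, stood at 4.36, 3.83 and 3.69 CPM with YKL-5-124, 5.09, 4.78 and 5.34 CPM with samuraciclib and 0.800, 1.17 and 0.753 CPM with DMSO. GBP1 (ENSG00000117228, chromosome 1, 89052319 to 89065360), its neighbour on the same strand, stood at 40.8, 48.0 and 40.7 CPM with YKL-5-124, 45.1, 46.9 and 47.4 CPM with samuraciclib and 17.1, 21.0 and 23.3 CPM with DMSO. For both genes every inhibitor library lay well above every DMSO library. GBP2 rose 4.40-fold with YKL-5-124 (2.14 ± 0.20, edgeR adjusted p = 7.52e-08) and 5.63-fold with samuraciclib (2.49 ± 0.19, edgeR adjusted p = 1.16e-08). GBP1 rose 2.10-fold with YKL-5-124 (1.07 ± 0.092, edgeR adjusted p = 2.54e-08) and 2.25-fold with samuraciclib (1.17 ± 0.092, edgeR adjusted p = 1.20e-08). Both GBP calls in both comparisons were kept in all 22 alternative settings. The model of GBP2 shares 42.2% of its span with GBP7 on the same strand, which had a mean of 0.889 counts per library.

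Of the 3 TRIM ubiquitin ligases, TRIM22 rose with samuraciclib. TRIM22 (ENSG00000132274, chromosome 11, 5689689 to 5737089), an antiviral member of the family, stood at 4.57, 4.89 and 4.37 CPM with YKL-5-124, 6.08, 6.46 and 6.62 CPM with samuraciclib and 3.43, 3.62 and 3.76 CPM with DMSO. The groups did not overlap, with samuraciclib highest and DMSO lowest. TRIM22 rose with samuraciclib (0.82 ± 0.13, edgeR adjusted p = 4.83e-05), and its difference with YKL-5-124 was inside the fold threshold (0.35 ± 0.13, edgeR adjusted p = 0.0350). Its model lies wholly within the span of TRIM5 on the opposite strand, and TRIM5 fell in both comparisons (-0.88 ± 0.095 with YKL-5-124 and -0.74 ± 0.095 with samuraciclib). TRIM21, a cytosolic antibody receptor, had 0.30 ± 0.10, edgeR adjusted p = 0.0222 with YKL-5-124 and 0.50 ± 0.10, edgeR adjusted p = 6.06e-04 with samuraciclib, just inside the fold threshold. TRIM25, a cofactor of RIG-I, had -0.20 ± 0.045 and -0.18 ± 0.045 in the same comparisons.

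The IFI genes went different ways. IFI44 (ENSG00000137965, chromosome 1, 78649796 to 78664078), a cytoplasmic protein with antiviral activity, stood at 26.8, 25.6 and 25.2 CPM with YKL-5-124, 22.7, 26.0 and 24.2 CPM with samuraciclib and 52.8, 56.0 and 57.5 CPM with DMSO. No inhibitor library came near the DMSO range. IFI44 fell 2.15-fold with YKL-5-124 (-1.10 ± 0.066, edgeR adjusted p = 2.25e-10) and 2.28-fold with samuraciclib (-1.19 ± 0.067, edgeR adjusted p = 2.50e-10), and both calls were kept in all 22 alternative settings. IFI27 (ENSG00000165949, chromosome 14, 94104836 to 94116698), a small mitochondrial membrane protein, stood at 4.83, 5.28 and 4.18 CPM with YKL-5-124, 3.69, 3.73 and 3.80 CPM with samuraciclib and 3.49, 2.82 and 3.27 CPM with DMSO. Both inhibitor groups lay above all DMSO libraries. IFI27 rose with YKL-5-124 (0.58 ± 0.15, edgeR adjusted p = 0.00359), and its difference with samuraciclib was 0.23 ± 0.15, edgeR adjusted p = 0.249. The IFI27 call with YKL-5-124 was lost without YKL-5-124 replicate 2 (0.49, edgeR adjusted p = 0.0253) and in the 6 libraries without low RN7SL2 (0.51, edgeR adjusted p = 0.0529).

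IFI6 (ENSG00000126709, chromosome 1, 27666061 to 27672218), a related membrane protein that protects against cell death, stood at 10.9, 11.3 and 14.1 CPM with YKL-5-124, 7.57, 8.15 and 7.96 CPM with samuraciclib and 9.77, 9.74 and 8.96 CPM with DMSO. Its YKL-5-124 libraries lay above and its samuraciclib libraries below the DMSO libraries, with log2 fold changes of 0.35 ± 0.11, edgeR adjusted p = 0.0134 with YKL-5-124 and -0.26 ± 0.12, edgeR adjusted p = 0.0766 with samuraciclib, neither called. IFI35 had -0.41 ± 0.093, edgeR adjusted p = 0.00127 with YKL-5-124 and -0.48 ± 0.094, edgeR adjusted p = 3.76e-04 with samuraciclib, inside the fold threshold. IFI44L, the paralog beside IFI44, was far lower and less precise, with -0.070 ± 0.25, edgeR adjusted p = 0.839 with YKL-5-124 and 0.52 ± 0.24, edgeR adjusted p = 0.0817 with samuraciclib. SP110 (ENSG00000135899, chromosome 2, 230167293 to 230225729), a nuclear body protein, stood at 18.8, 18.3 and 15.5 CPM with YKL-5-124, 12.5, 11.7 and 12.6 CPM with samuraciclib and 12.1, 12.3 and 13.1 CPM with DMSO. The YKL-5-124 libraries of SP110 lay above all others, and those of samuraciclib overlapped with DMSO. SP110 had 0.48 ± 0.095, edgeR adjusted p = 3.55e-04 with YKL-5-124, just inside the fold threshold, and -0.033 ± 0.098, edgeR adjusted p = 0.813 with samuraciclib. Without YKL-5-124 replicate 3 the YKL-5-124 difference was 0.57, edgeR adjusted p = 1.31e-04, and without DMSO replicate 3 it was 0.52, edgeR adjusted p = 9.59e-04, past both thresholds. LGALS3BP, EPSTI1 and LAMP3 had log2 fold changes of -0.082 to 0.16 with YKL-5-124 and -0.18 to -0.076 with samuraciclib.

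**Figure D3:**
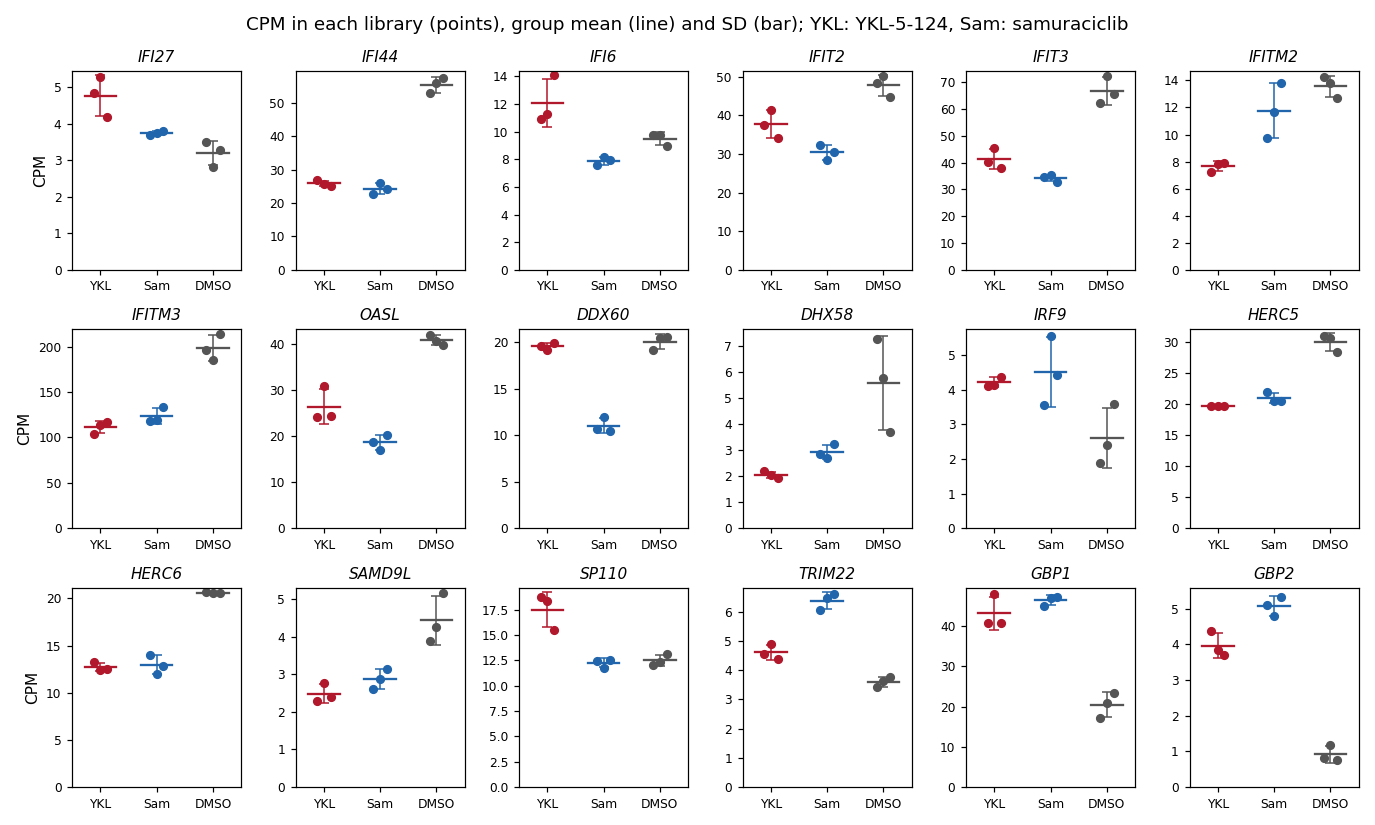
CPM of the 18 members called in at least 1 comparison, in each of the 3 libraries of YKL-5-124, samuraciclib and DMSO, with the group mean (line) and SD (bar) and a linear axis from 0. All inhibitor points of IFI44, IFIT3, IFITM3, HERC5 and HERC6 lie below the DMSO points, those of GBP1 and GBP2 lie above them, and those of DDX60 are low with samuraciclib alone.

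Neighbouring members did not always share a call. IFI44 fell with both inhibitors, whereas IFI44L, 3650 bases upstream on the same strand, was not called. HERC6 and HERC5, 14005 bases apart, both fell with both inhibitors, as GBP1 and GBP2, 40771 bases apart, both rose. In the IFIT cluster of chromosome 10, IFIT3 was called with both inhibitors, IFIT2 with samuraciclib, and IFIT1 and IFIT5 in neither comparison. SAMD9L fell with both inhibitors and SAMD9, 12031 bases away, was not called. No difference between neighbours was tested.

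The direct comparison of YKL-5-124 with samuraciclib, at the same dose and time, asks where the compounds differ. Of the 49 members, 4 were higher (8.16%) and 1 lower (2.04%) with YKL-5-124, 10.2% in all, against 6.92% of all genes tested, 4.46% higher and 2.46% lower. DDX60 differed most (0.83 ± 0.086, edgeR adjusted p = 3.19e-06), with all YKL-5-124 libraries above all samuraciclib libraries. IFI6 (0.61 ± 0.11, edgeR adjusted p = 7.43e-04), OASL (0.51 ± 0.094, edgeR adjusted p = 7.28e-04) and SP110 (0.52 ± 0.095, edgeR adjusted p = 7.29e-04) were higher with YKL-5-124 as well, and IFITM2 was lower (-0.61 ± 0.12, edgeR adjusted p = 0.00122). The libraries of the 2 inhibitors did not overlap for any of these 5, and 38.7% of all genes tested did not overlap either.

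Only the DDX60 call was kept without each single library in turn. Without YKL-5-124 replicate 3 the IFI6 difference was 0.49, edgeR adjusted p = 0.00559, and without samuraciclib replicate 3 that of IFITM2 was -0.49, edgeR adjusted p = 0.00804. Without samuraciclib replicate 2 the OASL difference was 0.45, edgeR adjusted p = 0.00367 and that of SP110 was 0.49, edgeR adjusted p = 0.00334, which left 3 called members. Without YKL-5-124 replicate 2 the OASL difference was 0.38, edgeR adjusted p = 0.00392 and that of SP110 was 0.48, edgeR adjusted p = 0.00398, and without YKL-5-124 replicate 1 that of SP110 was 0.46, edgeR adjusted p = 0.00659. In the 6 libraries without low RN7SL2, 4 members were called, DDX60, IFI6, IFITM2 and TRIM22, and the SP110 and OASL calls were lost. TRIM22 was lower there (-0.50, edgeR adjusted p = 0.0432). TRIM22 was past both thresholds without YKL-5-124 replicate 2 (-0.51, edgeR adjusted p = 0.0177) and without samuraciclib replicate 1 (-0.50, edgeR adjusted p = 0.0211) as well.

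Of the 44 members not called between the inhibitors, 31 had a 95% interval inside 0.5 on either side of 0, so that a difference beyond the fold threshold lay outside the interval. For the other 13 the interval reached beyond 0.5. Among these, ISG15 was higher with YKL-5-124 by less than the fold threshold (0.45 ± 0.083, edgeR adjusted p = 7.04e-04, interval 0.29 to 0.62), and IFI44L (-0.59 ± 0.24, edgeR adjusted p = 0.0767, interval -1.05 to -0.13) and DHX58 (-0.51 ± 0.23, edgeR adjusted p = 0.119, interval -0.96 to -0.055) had log2 fold changes beyond 0.5 that missed the adjusted p. Members called against DMSO for 1 inhibitor and not for the other need not differ between them. The direct difference was inside the fold threshold for IFIT2 (0.32 ± 0.076, edgeR adjusted p = 0.00570), TRIM22 (-0.47 ± 0.12, edgeR adjusted p = 0.0107) and IFI27 (0.35 ± 0.15, edgeR adjusted p = 0.0876). GBP2 differed by -0.36 ± 0.15, edgeR adjusted p = 0.0987, with an interval of -0.66 to -0.057. GBP1 (interval -0.27 to 0.065) and IFI44 (interval -0.048 to 0.23) had intervals inside the fold threshold.

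**Figure D4:**
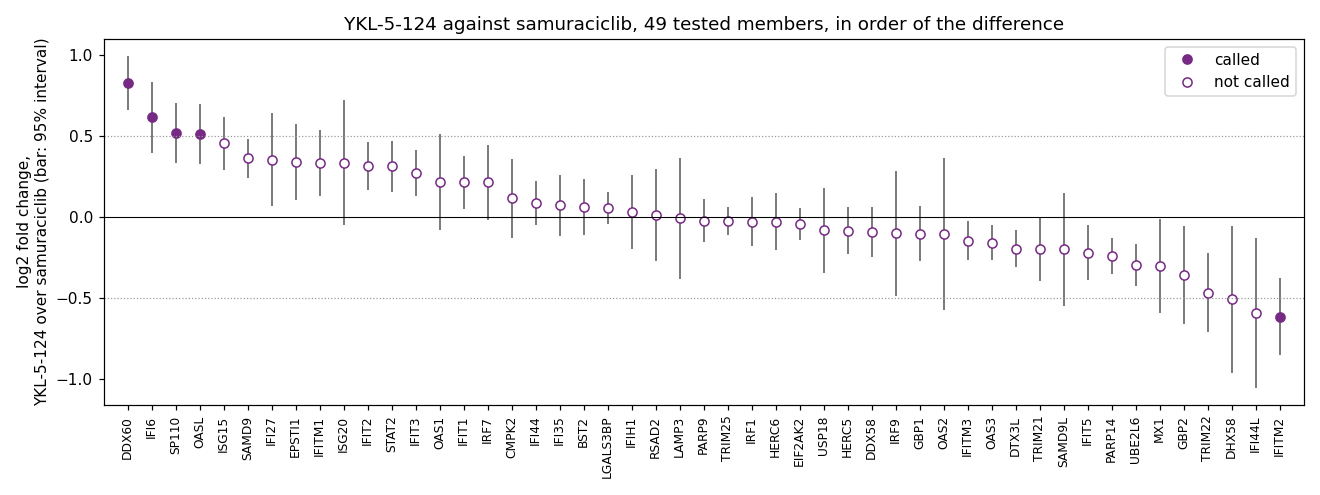
Log2 fold change of YKL-5-124 over samuraciclib for the 49 tested members, in order of the difference, with bars of the 95% interval (1.96 SE) and dotted lines at the fold threshold. DDX60, IFI6, SP110 and OASL are filled above 0 and IFITM2 is filled below 0, and the other 44 open points were not called.

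The upstream pathway was described by a list of 41 genes for interferons, receptors, kinases and STAT proteins, nucleic acid sensing and negative regulators, of which 28 were tested. With YKL-5-124 2 of these 28 rose and 1 fell (10.7%, against 21.8% of all genes), and with samuraciclib also 2 rose and 1 fell (10.7%, against 17.7%). Of 12 interferon genes, 7 had no count in any library, where a count of 0 allows a level of up to 0.113 to 0.172 CPM per library (3 counts, counting error only), and 4 more had at most 6 counts in a library. The remaining one, IFNE, an epithelial type I interferon, stood at 2.86, 2.43 and 2.48 CPM with YKL-5-124, 1.40, 2.55 and 2.46 CPM with samuraciclib and 0.286, 0.585 and 0.452 CPM with DMSO. Every inhibitor library lay above every DMSO library, with 2.52 ± 0.31, edgeR adjusted p = 2.17e-06 for YKL-5-124 and 2.25 ± 0.32, edgeR adjusted p = 1.34e-05 for samuraciclib. IFNE lies wholly within MIR31HG, a non-coding gene on the same strand, which was called as well (1.19 ± 0.15 with YKL-5-124 and 1.59 ± 0.14 with samuraciclib), so reads counted for IFNE may belong to MIR31HG.

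Most receptor and kinase genes were not called. IFNAR1 had -0.20 ± 0.048, edgeR adjusted p = 0.00193 with YKL-5-124 and -0.16 ± 0.048, edgeR adjusted p = 0.0123 with samuraciclib, and TYK2 had 0.23 ± 0.063, edgeR adjusted p = 0.00654 and -0.0012 ± 0.064, edgeR adjusted p = 0.991 in the same comparisons, none called. JAK1 had 0.44 ± 0.046, edgeR adjusted p = 3.04e-07 with YKL-5-124 and 0.42 ± 0.046, edgeR adjusted p = 8.22e-07 with samuraciclib, inside the fold threshold. JAK2, the kinase of the interferon gamma receptor, rose with YKL-5-124 (0.52 ± 0.082, edgeR adjusted p = 4.05e-05) just beyond it, and without YKL-5-124 replicate 2 its difference was 0.47, edgeR adjusted p = 3.69e-04. The JAK2 difference was 0.47, edgeR adjusted p = 5.69e-04 without DMSO replicate 2, and 0.49, edgeR adjusted p = 4.11e-04 in the 6 libraries without low RN7SL2. With samuraciclib JAK2 had 0.30 ± 0.083, edgeR adjusted p = 0.00604.

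IFNAR2 stood at 1.45, 0.939 and 1.36 CPM with YKL-5-124, 1.87, 1.82 and 1.90 CPM with samuraciclib and 1.09, 0.958 and 1.47 CPM with DMSO, and was called higher with samuraciclib (0.64 ± 0.25, edgeR adjusted p = 0.0483) but not with YKL-5-124 (0.050 ± 0.27, edgeR adjusted p = 0.893). Its samuraciclib call was lost without any 1 of the 3 samuraciclib libraries, without DMSO replicate 1 or 2 and without YKL-5-124 replicate 3. Among these sets of libraries it was weakest without DMSO replicate 2 (0.52, edgeR adjusted p = 0.159). The call was also lost with DESeq2, without the filter and with a test against the fold threshold itself. It was lost as well at an adjusted p below 0.01 and at a log2 fold change beyond 1. IFNAR2 lies wholly within AP000295.1, a gene model on the same strand with a mean of 0.333 counts per library. Reads of the pair may thus not be fully separable. SOCS3, an inhibitor of cytokine receptor signalling, stood at 30.7, 31.8 and 37.1 CPM with YKL-5-124, 45.6, 42.7 and 43.6 CPM with samuraciclib and 61.8, 61.8 and 66.9 CPM with DMSO. All inhibitor libraries lay below all DMSO libraries. SOCS3 fell with YKL-5-124 (-0.94 ± 0.069, edgeR adjusted p = 3.28e-09) and with samuraciclib (-0.53 ± 0.067, edgeR adjusted p = 4.11e-06), and without DMSO replicate 3 the samuraciclib difference was -0.49, edgeR adjusted p = 5.61e-05. It was -0.47, edgeR adjusted p = 2.05e-05 with scaling by library size alone and -0.47, edgeR adjusted p = 2.21e-05 in the 6 libraries without low RN7SL2, inside the fold threshold. In the direct comparison edgeR called 0 of the 28 pathway genes, against 6.92% of all genes, and 12 (42.9%) had an unadjusted p below 0.05, against 36.5% of all genes. DESeq2 called 0 as well.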

How the data were processed

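The 51 members, the pathway list and the list of further interferon-stimulated genes were chosen with earlier results of these data known. The authors deposited counts, whole numbers of read pairs per gene without normalization, together with gene length and position. Per the labels and the study's methods, poly(A)-selected RNA was sequenced from both ends, HISAT2 placed the reads on GRCh38, and featureCounts 2.0.6 assigned them to a GENCODE annotation, of which the release and the strand setting are not given in the sources used here. Multi-mapping and overlapping reads can therefore shift counts between paralogs and between overlapping genes. The labels give 1 batch for all libraries.

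Genes were filtered with filterByExpr and scaled with TMM factors (edgeR 4.0.16). The quasi-likelihood F-test, two-sided, was run in 1 fit of all 9 libraries without covariates, with Benjamini-Hochberg adjustment over 16065 genes within each of 3 comparisons. SE is the size of the log2 fold change over the square root of F, and 95% intervals are 1.96 SE on either side. The common biological coefficient of variation was 0.0631. The CPM values use TMM-scaled library sizes and are relative to the other genes, so RNA per cell was not measured. Values per library were given for members called in any comparison and for the 4 transcription factors, and pathway genes were named where called, with JAK1, TYK2, IFNAR1 and IFNAR2 whatever their values. A further gene to be named whatever its values is not reported here. The fit was tested on simulated counts. DESeq2 1.42.0, other scalings, filters, thresholds and sets of libraries were tried as alternatives. R 4.3.3 and Python 3.11.15 were used.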

Additional observations from a re-analysis of the deposited data

How the results depend on the processing

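No called difference changed sign in the alternatives run. Uncalled differences near 0 could, as for DDX60 with YKL-5-124 (-0.073 to 0.092), IRF9 between the inhibitors (-0.25 to 0.094), and STAT2 (-0.13 to 0.073) and SP110 (-0.060 to 0.037) with samuraciclib. The main counts were 13 called members with YKL-5-124, 14 with samuraciclib and 5 in the direct comparison. Leaving out each library in turn gave 12 to 14 with YKL-5-124, 13 to 17 with samuraciclib and 3 to 6 in the direct comparison. The choice of threshold moved the counts most: glmTreat, which tests against the fold threshold itself, called 8, 8 and 1, the adjusted p alone called 25, 23 and 17, and a log2 fold change beyond 1 left 4, 4 and 0. The counts here and below stand without the share of all genes in each setting, so they describe the settings and not the lists. At an unadjusted edgeR p below 0.05 the members' shares were 65.3%, 53.1% and 49%, against 55.5%, 51.4% and 36.5% of all genes. For the pathway genes, glmTreat called 1 with samuraciclib, the adjusted p alone called 14 with YKL-5-124, 15 with samuraciclib and 8 in the direct comparison, and a log2 fold change beyond 1 left 1 with either inhibitor. Scaling by library size alone called 5 pathway genes with YKL-5-124, a mean count of at least 50 left 1 with samuraciclib, and the 6 libraries without low RN7SL2 gave 1 in the direct comparison. For the further interferon-stimulated genes, glmTreat called 3, 3 and 0, the adjusted p alone 16, 14 and 9, and a log2 fold change beyond 1 left 0, 1 and 0. In their direct comparison, library size alone, the fit of only the 2 groups and an adjusted p below 0.01 each left 1, and leaving out each library gave 1 to 2. With up to 1 mismatch, 84.6% of the members' windows held the ISRE letters, against 33.4% of all promoters. Deviations from the group means correlated weakly between libraries (r at most 0.17), and same-numbered replicates did not deviate together in every pair. Such weak correlations cannot decide whether the numbers pair the samples. The highest were between the libraries low in RN7SL2: YKL-5-124 replicate 2 with samuraciclib replicate 2 (0.17), and DMSO replicate 3 with each of these (0.15 and 0.15). A fit with the replicate number as a block called 13, 14 and 5 members. Among the other genes named, the block ended the calls of TDRD7 with YKL-5-124 (0.49, edgeR adjusted p = 0.00308) and samuraciclib (0.49, edgeR adjusted p = 0.00386) and no other. The cause of these shifts was not tested. IFNE, GBP2, IFNAR2, MX2 and XAF1 have few counts, which limits their precision. IFNE and IFNAR2 also lie wholly within other gene models on the same strand, and the part of that overlap in their low counts was not tested.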

Other observations

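A list of 44 further interferon-stimulated genes, 34 of them tested, held calls in both directions. With YKL-5-124 2 rose and 5 fell (20.6%, against 21.8% of all genes tested), with samuraciclib 3 rose and 5 fell (23.5%, against 17.7%), and in the direct comparison 2 were lower with YKL-5-124 (5.88%, against 6.92%). APOBEC3B, a cytidine deaminase that can mutate tumour DNA, stood at 34.4, 34.7 and 31.6 CPM with YKL-5-124, 27.4, 28.8 and 25.5 CPM with samuraciclib and 57.6, 61.1 and 56.9 CPM with DMSO. All inhibitor libraries lay below all DMSO libraries, with -0.80 ± 0.064, edgeR adjusted p = 1.01e-08 for YKL-5-124 and -1.10 ± 0.065, edgeR adjusted p = 4.62e-10 for samuraciclib. TRIM14, an adaptor in antiviral signalling, stood at 26.4, 27.5 and 28.7 CPM with YKL-5-124, 25.4, 29.4 and 25.4 CPM with samuraciclib and 51.4, 48.7 and 49.8 CPM with DMSO, and fell with YKL-5-124 (-0.86 ± 0.068, edgeR adjusted p = 9.63e-09) and samuraciclib (-0.90 ± 0.069, edgeR adjusted p = 8.80e-09). TRIM5, a restriction factor against retroviral capsids, stood at 10.3, 9.11 and 9.67 CPM with YKL-5-124, 10.5, 10.1 and 11.6 CPM with samuraciclib and 17.0, 17.7 and 18.9 CPM with DMSO, and fell with YKL-5-124 (-0.88 ± 0.095, edgeR adjusted p = 4.83e-07) and samuraciclib (-0.74 ± 0.095, edgeR adjusted p = 5.09e-06). Neither TRIM gene had overlap between inhibitor and DMSO libraries.

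UBA7, the activating enzyme of ISG15, stood at 2.65, 2.15 and 2.72 CPM with YKL-5-124, 2.20, 2.32 and 2.41 CPM with samuraciclib and 1.49, 1.22 and 1.17 CPM with DMSO, and rose with both inhibitors (0.96 ± 0.21, edgeR adjusted p = 9.62e-04 for YKL-5-124 and 0.85 ± 0.21, edgeR adjusted p = 0.00322 for samuraciclib). IFI27L2 fell with YKL-5-124 (-0.55 ± 0.11, edgeR adjusted p = 2.75e-04) and samuraciclib (-0.58 ± 0.11, edgeR adjusted p = 2.29e-04), and was inside the fold threshold without YKL-5-124 replicate 1 (-0.49, edgeR adjusted p = 0.00255) and without samuraciclib replicate 2 (-0.46, edgeR adjusted p = 0.00122). In the 6 libraries without low RN7SL2 the samuraciclib difference was -0.47, edgeR adjusted p = 0.00185, and with scaling by library size alone the YKL-5-124 difference was -0.43, edgeR adjusted p = 0.00313, both inside the fold threshold. CSF1, a growth factor of macrophages, was lower with YKL-5-124 than with samuraciclib (-0.64 ± 0.11, edgeR adjusted p = 4.03e-04), with 10.1, 10.0 and 10.6 CPM with YKL-5-124, 16.7, 14.2 and 17.1 CPM with samuraciclib and 9.77, 13.0 and 10.8 CPM with DMSO. GBP4 fell with YKL-5-124 (-0.70 ± 0.21, edgeR adjusted p = 0.0108) and was lower than with samuraciclib (-0.63 ± 0.21, edgeR adjusted p = 0.0362), where GBP1 and GBP2 rose with both. The GBP4 difference from DMSO was -0.50, edgeR adjusted p = 0.0567 without YKL-5-124 replicate 1 and -0.60, edgeR adjusted p = 0.0503 without DMSO replicate 1. The direct GBP4 call was also lost without YKL-5-124 replicate 1 (-0.44, edgeR adjusted p = 0.150), YKL-5-124 replicate 3 (-0.63, edgeR adjusted p = 0.0813), samuraciclib replicate 1 (-0.64, edgeR adjusted p = 0.0792) or samuraciclib replicate 2 (-0.55, edgeR adjusted p = 0.112). The calls of TDRD7 with both inhibitors (0.51 ± 0.12 with YKL-5-124 and 0.50 ± 0.12 with samuraciclib), of RNF213 with samuraciclib (-0.51 ± 0.049) and of CSF1 with samuraciclib (0.51 ± 0.11) lay at the fold threshold. Without DMSO replicate 1 these were 0.48, edgeR adjusted p = 0.0122 and 0.48, edgeR adjusted p = 0.0146 for TDRD7 with YKL-5-124 and samuraciclib, -0.46, edgeR adjusted p = 2.39e-06 for RNF213 and 0.43, edgeR adjusted p = 0.00864 for CSF1. The YKL-5-124 call of TDRD7 was also lost without YKL-5-124 replicate 2 (0.41, edgeR adjusted p = 0.0177), without DMSO replicate 2 (0.45, edgeR adjusted p = 0.0159) and in the 6 libraries without low RN7SL2 (0.49, edgeR adjusted p = 0.00522). Its samuraciclib call was also lost without samuraciclib replicate 1 (0.45, edgeR adjusted p = 0.0169), samuraciclib replicate 2 (0.42, edgeR adjusted p = 0.0153) or DMSO replicate 2 (0.45, edgeR adjusted p = 0.0185). RNF213 was also inside the fold threshold without samuraciclib replicate 3 (-0.49, edgeR adjusted p = 2.06e-06), and CSF1 without samuraciclib replicate 1 (0.48, edgeR adjusted p = 0.00588), samuraciclib replicate 3 (0.47, edgeR adjusted p = 0.00566) or DMSO replicate 3 (0.48, edgeR adjusted p = 0.00605).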
